A study of Mus musculus with 6 samples.

Results

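Smooth muscle contractile genes and genes of the actin cytoskeleton that serum response factor (SRF) is known to drive were described in testes of newborn mice lacking Arid4b in Sertoli cells. The group was a list of 38 gene symbols, put together from myoid contractile genes, SRF targets and LIM protein genes, with earlier results of these data known. All 38 were found among the 22320 genes of the table, and all passed the minimum level of the test. The list held 4 actins, 5 genes of myosin and its kinase, 11 genes of proteins that bind thin filaments or stress fibres, 6 genes of filament anchorage, 9 LIM protein genes and 3 transcription factor genes.

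Peritubular myoid cells are flat, smooth muscle-like cells that ring the testis cords and contract them. They are known for alpha smooth muscle actin, smooth muscle myosin, calponin, desmin and transgelin, which smooth muscle of the vessels also makes. SRF binds a short A/T-rich element, the CArG box, and takes its cue from the actin cytoskeleton. When actin polymerises, the cofactors MKL1 and MKL2 are freed from actin monomers, enter the nucleus and join SRF. Myocardin, encoded by Myocd, is the cofactor of the smooth muscle programme. Many LIM proteins sit on actin filaments or at focal adhesions.

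Messenger RNA of whole testes was sequenced at postnatal day 1.5 in mice of a mixed C57BL6/J and 129/SvEv background. The Arid4bSCKO group carried Arid4b-/Flox with Amh-cre, and the control group Arid4b+/Flox with Amh-cre, so both groups carried the floxed allele and the Cre. The Amh promoter is active in Sertoli cells, and not in myoid cells, where the floxed allele should stay intact. The null allele, however, is carried by every cell of the Arid4bSCKO testes and by none of the controls. Each group had 3 pools of 4 testes. The labels do not say whether pools came from separate litters, so a p-value here speaks of the spread among these pools. Each level below is the mean of log2(normalized count + 1) that the authors gave for a group, and values of single pools were not analysed here. Whether the groups overlapped can therefore not be said for any gene, and each difference stands with its 95% interval instead. Arid4b itself was at 35.1% of its control level, or -1.51 in log2 units (95% interval -1.82 to -1.21, moderated adjusted p = 2.23e-05). Depth, as read from the low values, was near 17.6 M (mega) reads in an Arid4bSCKO library and 18.6 M in a control one. Markers of Sertoli, fetal Leydig and germ cells were present in both groups, none of them at 0.

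Of the 38 contractile and SRF actin genes 9 were called higher in Arid4bSCKO testes, 2 lower and 27 neither. In sign alone, 32 had a positive difference and 6 a negative one, with a median of 0.21 log2 units. Over all 19095 genes tested 45.8% were positive and the median was -0.04. Among those with a log2 level of at least 9, 49.1% were positive and the median was -0.01. A gene is called here when the Benjamini-Hochberg adjusted p of a moderated limma test, run over all genes tested, is below 0.05. The 9 called higher are 23.7% of the 38, against 7.37% of all genes tested and 10.9% of those with a log2 level of at least 9, where 33 of the 38 stood. The 2 called lower stand against 6.46% of all genes tested and 9.86% at that level. In either direction 11 of the 38 and 13.8% of all genes tested were called. The genes called higher were Pdlim1, Tagln2, Tagln, Pdlim7, Myl6, Tpm1, Csrp1, Tpm4 and Fhl2, and those called lower were Synpo2 and Pdlim4. Only 4 of the 9 rises reached 1.5-fold. By the FDR of the authors' deposited table, Pdlim1 alone of the 38 passed 0.05, as did 0.26% of its genes. The unadjusted p of that table was below 0.05 for 12 of the 38 and for 24.1% of all genes tested. When the spread was moderated toward 1 common value, with neither a trend on level nor robust fitting, 2 of the 38 were called higher (Pdlim1 and Tagln) and 1 lower (Synpo2), against 0.859% and 0.382% of all genes tested. Other settings called 12 of the 38 among genes at a level of 5 or more (19.7% of all), 11 from the ratio of medians (16.2%) and 10 with the trend of the difference on level removed (13.8%).

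**Figure D1:**
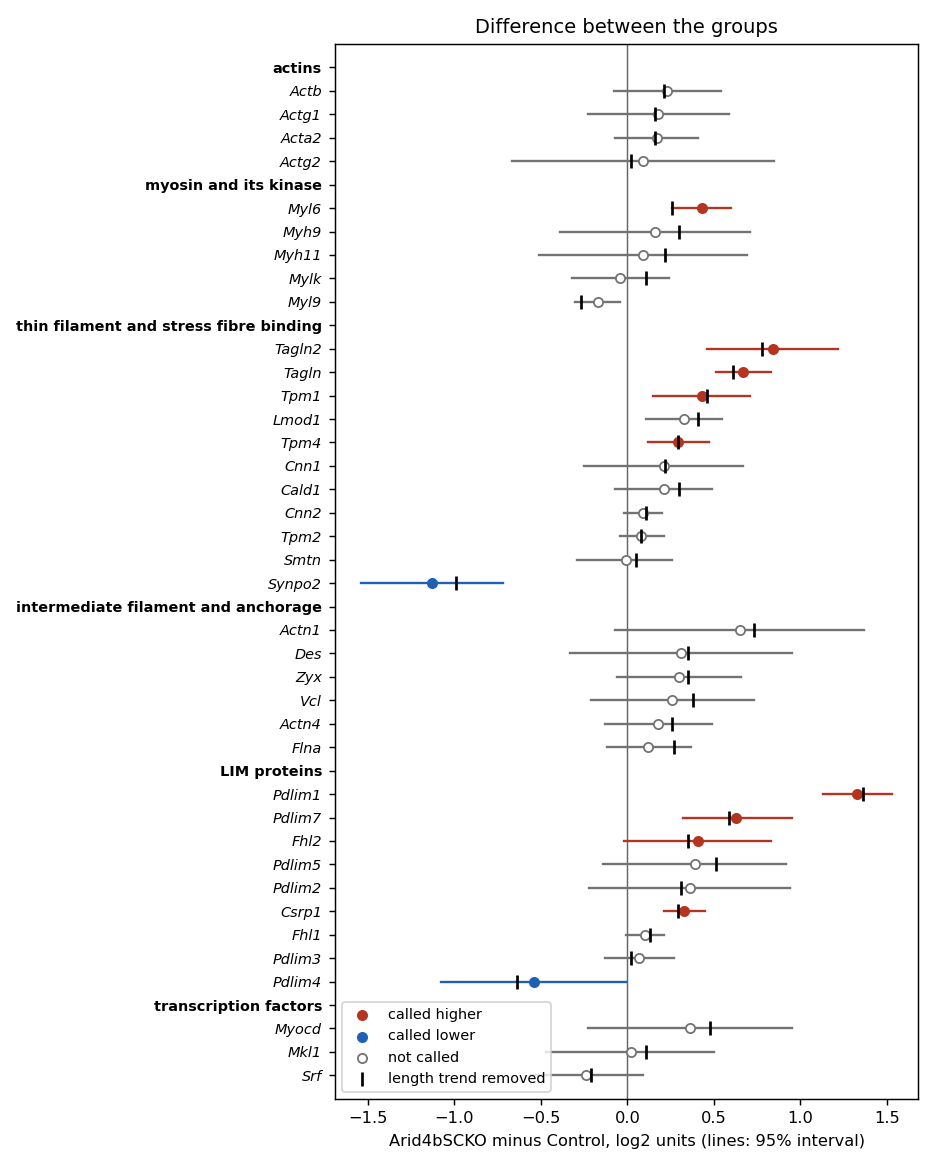
Difference of the group means (Arid4bSCKO minus control, log2 units) for each of the 38 genes by role, with the 95% interval as a line. Filled red and blue points were called higher and lower, open points were not called, and black ticks give the difference after the trend over transcript length was removed. Points to the right of 0 make up 32 of the 38.

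Genes labelled here as chiefly expressed in muscle and genes labelled as broadly expressed were counted apart. The labels are rough, with Mylk in the muscle part and Tpm2 and Fhl1 in the broad part. Of 13 with the muscle label, among them Synpo2, Des and Pdlim3, which striated muscle also expresses, 1 was called higher (Tagln) and 1 lower (Synpo2). Of these 13 differences 9 were positive (69.2%, against 45.8% of all genes tested), and their median was 0.09. Of the other 25, among them Csrp1, which smooth muscle also makes, 8 were called higher and 1 lower, 23 differences were positive and the median was 0.26. Called higher were 7.7% of the 13 and 32% of the 25, against 7.37% of all genes tested. In either direction 15.4% and 36% were called, against 13.8%. Whether these medians or shares differ was not tested. In bulk testis, a change in the number of cells of a type and a change in RNA per cell cannot be told apart.

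Levels spanned a wide range. To compare genes, group means were turned back to normalized counts and divided by transcript length. On that per-kilobase scale Actg1 (16990), Actb (12935) and Myl6 (12198), which all cells use, led the list in control testes. Acta2 followed at 6862 and lay above 99.1% of the genes with a known length. Tpm4 (5497), Pdlim3 (5278) and Myl9 (5148) came next. Among other genes of smooth muscle, Tagln (2549) and Mylk (718) stood lower, and lower still were markers of its mature state, with Myh11 at 320 normalized counts per kilobase, Des at 311, Actg2 at 158, Cnn1 at 106 and Lmod1 at 47.4. Myocd stood at 50.4, Mkl1 at 180 and Srf at 487. Synpo2 was the lowest of the 38, at 14.9. Neighbours in this order cannot be told apart by their spread, because no spread per kilobase can be computed from group means.

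**Figure D2:**
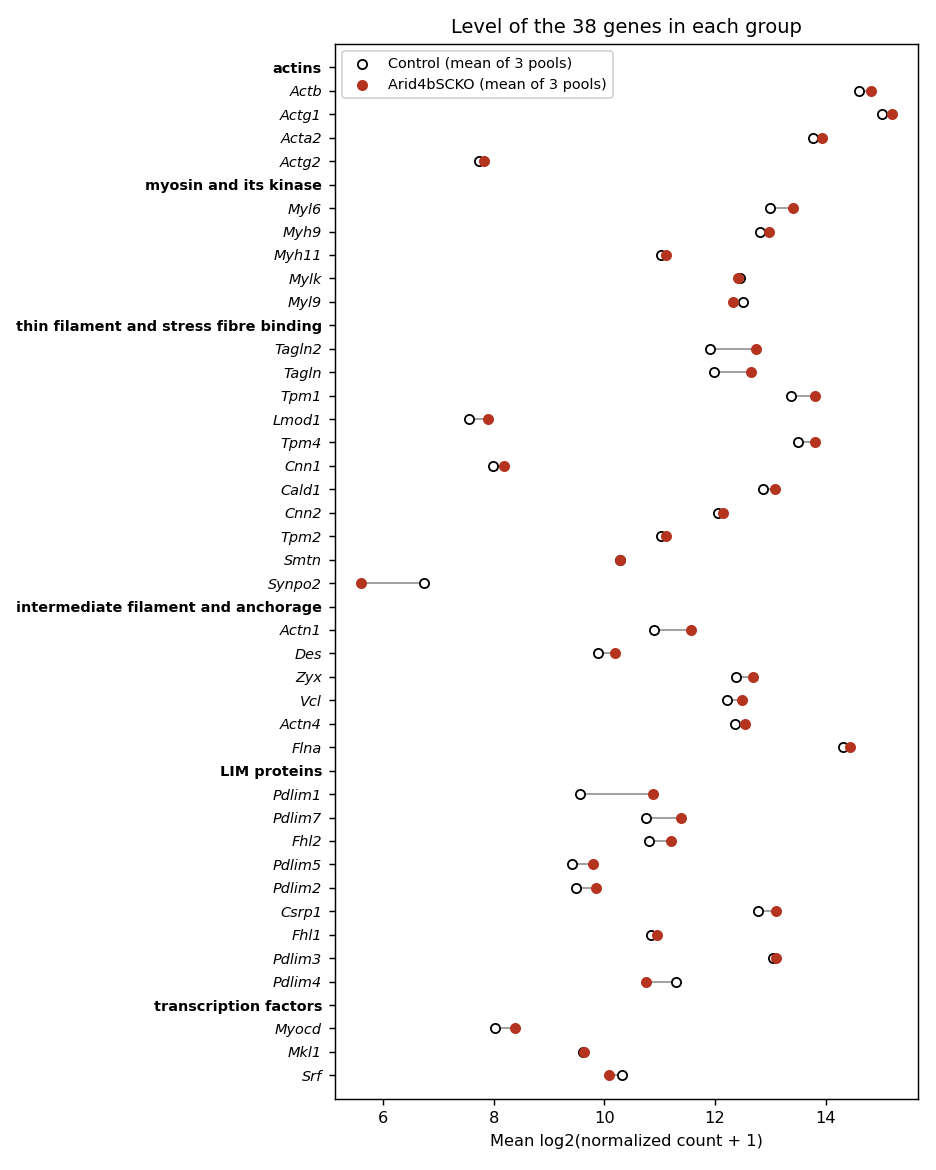
Mean log2(normalized count + 1) of each gene in the 3 control pools (open points) and the 3 Arid4bSCKO pools (red points), ordered by role. Control means ran from 6.73 for Synpo2 to 15.02 for Actg1, and the widest gaps are those of Pdlim1, Synpo2 and Tagln2.

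The CArG box was looked for in the promoters because SRF is the factor these genes are thought to share. RefSeq promoter windows (GRCm38.p6, the build of the table, from 250 bases before to 50 after a start site) were found for 32 of the 38 genes, in 39 windows. Actg2, Actb, Myh11, Tagln, Pdlim2 and Myocd were not matched. The box is 2 C, then 6 letters that are each A or T, then 2 G, and reads as a CArG box on both strands. It was found in 8 of the 32 genes, or 25%, and in 1.62% of the tested genes that have a window. Allowing 1 mismatch gave 16 of the 32 genes and 20.7% of the tested genes. Part of the list was chosen as known SRF targets, so its larger shares were partly set by that choice. They are a description of the list and no result of these data. The stretches below are shown because they hold these boxes in Srf itself, in the called genes Myl6 and Fhl2 (at each of its start sites), in Myl9, in Actg1 and, with 1 mismatch in each box, in Acta2. The sequences run 5′ to 3′ on the gene's strand and end before the start site, and capitals mark the box.
Srf, chr17:46556195-46556264, minus strand: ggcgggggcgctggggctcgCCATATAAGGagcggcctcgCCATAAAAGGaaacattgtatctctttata
Myl6, chr10:128493030-128493079, minus strand: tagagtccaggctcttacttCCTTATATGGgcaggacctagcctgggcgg
Fhl2, upstream start site, chr1:43196828-43196877, minus strand: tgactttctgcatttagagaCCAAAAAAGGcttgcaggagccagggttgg
Fhl2, downstream start site, chr1:43163963-43164012, minus strand: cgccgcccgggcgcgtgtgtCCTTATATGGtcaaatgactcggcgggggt
Myl9, chr2:156775283-156775332, plus strand: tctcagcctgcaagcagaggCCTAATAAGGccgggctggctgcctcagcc
Actg1, chr11:120348556-120348605, minus strand: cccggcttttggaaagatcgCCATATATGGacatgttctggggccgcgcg
Acta2, chr19:34255378-34255477, minus strand: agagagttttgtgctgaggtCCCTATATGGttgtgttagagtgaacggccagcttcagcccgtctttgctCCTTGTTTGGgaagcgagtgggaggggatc

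Srf carried 2 boxes, beginning 82 and 62 bases before its start site, and Myl6 and the downstream start of Fhl2 carried the same letters, CCTTATATGG, 50 and 31 bases before theirs. Cnn2, Vcl and Fhl1 held a box 56, 227 and 102 bases before a start site. The share called higher was 25% both with and without a box, against 7.37% of all genes tested. Of the 8 genes with a box 2 were called higher and 0 lower, and the median difference was 0.14. Of the 24 with a window and no box 6 were called higher and 2 lower, and the median was 0.21. Absence of these letters from a window says nothing of more distant sites.

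**Figure D3:**
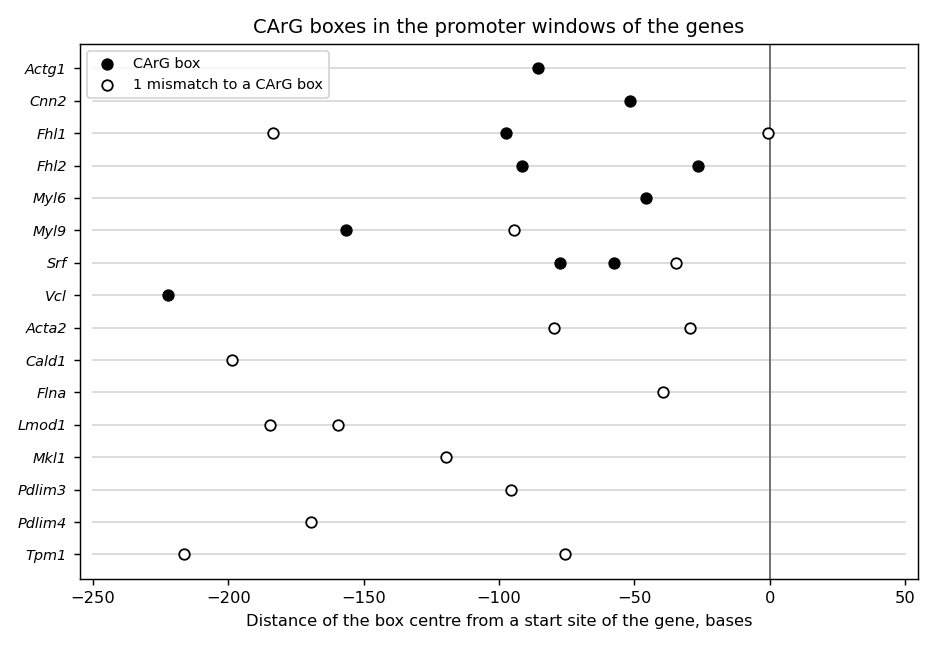
Position of each CArG box (filled) and of each sequence with 1 mismatch to it (open) in the promoter windows of the 16 genes that hold one, as the distance of its centre in bases from a start site at 0. Boxes lie upstream of the start in all 8 genes that hold an exact one.

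The 4 actin genes were not called (0 by the moderated limma test and by the authors' FDR, 1, Actb, at an unadjusted moderated p below 0.05), and all 4 differences were positive, from 0.09 to 0.23. Acta2, the alpha smooth muscle actin of myoid cells (chromosome 19, 34240336 to 34255373, minus strand, mm10), had log2 levels of 13.94 in Arid4bSCKO and 13.77 in control. Its difference of 0.17 (95% interval -0.07 to 0.41) thus has an interval that ends inside 1.5-fold in both directions. Actg2, the gamma smooth muscle actin of gut and bladder, stood at 7.82 and 7.73, and its interval of -0.67 to 0.85 was the widest of the actins. The cytoplasmic actins Actb and Actg1 differed by 0.23 (-0.08 to 0.54) and 0.18 (-0.23 to 0.59). Per kilobase, Acta2 made up 18.6% of the 4 actins in control and 18.2% in Arid4bSCKO, and Actg1 46% and 45.5%. The makeup of the actin transcripts was thus nearly the same in the group means. Of the 50-base windows of Actg1, 56.7% also occur in transcripts of other genes, such as Actg-ps1 and Gm12715, and 14.2% of those of Actb do, so their counts depend on how the authors placed such reads.

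Among the genes of myosin and its kinase, Myl6, the essential light chain shared by smooth muscle and non-muscle myosin (chromosome 10, 128490861 to 128493825, minus strand), was called higher. Its levels were 13.42 and 12.99, a rise of 0.43 (95% interval 0.26 to 0.60, moderated limma adjusted p = 0.00635). The Myl6 transcript, at 665 bases, was the shortest of the 38. With the trend over transcript length removed its difference was 0.26 and it was no longer called (adjusted p = 0.0563). Myl9, the regulatory light chain of smooth muscle, pointed the other way at -0.17 (-0.30 to -0.04), not called (moderated limma adjusted p = 0.173), but called lower with the length trend removed (-0.27, adjusted p = 0.0403). Myh11, the smooth muscle myosin heavy chain (chromosome 16, 14194527 to 14291408, minus strand), was at 11.12 and 11.03, a difference of 0.09 (-0.51 to 0.69). The ratio of the group medians in the authors' deposited table had the opposite sign for Myh11, at -0.10, as it had for 3 of the 38 and for 9.55% of all genes tested. Mylk, the kinase that phosphorylates the regulatory light chain and so starts contraction, was at -0.04 (-0.32 to 0.24), and the non-muscle heavy chain Myh9 at 0.16 (-0.39 to 0.71). Only the essential light chain was therefore called among these 5 genes, or 20%, against 13.8% of all genes tested.

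Of 11 genes of thin filament and stress fibre proteins 4 were called higher and 1 lower, against 7.37% and 6.46% of all genes tested. Tagln2, the transgelin found in many cell types (chromosome 1, 172500246 to 172507380, plus strand), had the second largest rise of the 38. Levels of Tagln2 were 12.75 and 11.91, a rise of 0.84 (95% interval 0.46 to 1.22) or 1.78-fold (moderated limma adjusted p = 0.000958). Tagln, the smooth muscle transgelin also called SM22-alpha (chromosome 9, 45929628 to 45936058, minus strand), rose from 11.99 to 12.66, by 0.67 or 1.59-fold (0.51 to 0.83, adjusted p = 0.00058). Per kilobase the pair stood close together, at 2549 and 2431 normalized counts for Tagln and Tagln2 in control and 4046 and 4340 in Arid4bSCKO. An antisense gene, Gm48529, covers 62.4% of the exon bases of Tagln, and without knowing how strand was used its reads cannot be told apart from those of Tagln. Both transgelins kept their calls with the length trend removed (adjusted p = 0.000863 and 0.00122).

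Tropomyosins, which lie along the actin filament and gate access of myosin, had 2 of 3 genes called higher, against 7.37% of all genes tested. Tpm1 rose by 0.43 (95% interval 0.15 to 0.71, moderated limma adjusted p = 0.0137) from 13.38 to 13.81. Tpm4 rose by 0.29 (0.12 to 0.47, adjusted p = 0.0385) from 13.51 to 13.81, but was not called with the level trend removed (adjusted p = 0.0845) or from the ratio of medians (adjusted p = 0.0641). Tpm2 was at 0.08 (-0.04 to 0.21), an interval that ends well below 1.5-fold. Of the 50-base windows of Tpm4 12.1% are shared with the gene model Gm7809. The share of Tpm1 in the 3 tropomyosins, per kilobase, was 36.2% in control and 38.9% in Arid4bSCKO, and that of Tpm4 54% and 52.8%.

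Synpo2, which encodes the actin-bundling protein myopodin of smooth and striated muscle (chromosome 3, 123076519 to 123236149, minus strand), was the one thin filament gene called lower. It fell from 6.73 to 5.60, a difference of -1.13 (95% interval -1.54 to -0.72), to 45.7% of control (moderated limma adjusted p = 0.00583). The levels correspond to 105 and 47.6 normalized counts, the fewest of the 38. The fall was kept with the length trend removed (-0.99, adjusted p = 0.0111). No other gene of this group was called lower. Lmod1, a leiomodin that starts actin filaments, was at 0.33 (0.11 to 0.55, not called), Cnn1, the smooth muscle calponin, at 0.21 (-0.25 to 0.67), and Smtn, smoothelin, at -0.01 (-0.29 to 0.26). Caldesmon, encoded by Cald1, was at 0.21 (-0.07 to 0.49) and the second calponin Cnn2 at 0.09 (-0.02 to 0.20), neither of them called. Per kilobase, Cnn2 made up 94.2% of the 2 calponins in control and 93.8% in Arid4bSCKO.

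None of the 6 genes of intermediate filaments and filament anchorage was called (0 by the moderated limma test and by the authors' FDR, 2, Actn1 and Zyx, at an unadjusted moderated p below 0.05), though all 6 differences were positive, with a median of 0.28. Actn1, which encodes the alpha-actinin that crosslinks stress fibres, had the largest at 0.65 (95% interval -0.07 to 1.37), with levels of 11.56 and 10.90. It missed the threshold (moderated limma adjusted p = 0.0626), and passed it with the length trend removed (0.73, adjusted p = 0.0405), with genes at a level of 5 or more (adjusted p = 0.0438) and with the ratio of medians (0.88, adjusted p = 0.0205). Its share of the alpha-actinins, per kilobase, was 27.3% in control and 34.2% in Arid4bSCKO, the rest being Actn4 (0.18, -0.13 to 0.49). Zyx, the focal adhesion protein zyxin, was at 0.30 (-0.06 to 0.66) and passed after removal of the length trend (0.35, adjusted p = 0.0479). Des, the muscle intermediate filament desmin, was at 0.31 (-0.33 to 0.95), Vcl, the adhesion protein vinculin, at 0.26 (-0.21 to 0.73), and Flna, the crosslinker filamin A, at 0.12 (-0.12 to 0.37). Exons of Ap3m1 on the other strand overlap 25.5% of the exon bases of Vcl, and Ap3m1 differed by 0.32.

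LIM protein genes had the largest share of calls among the roles, 55.6% in either direction against 13.8% of all genes tested. Of these 9 genes 4 were called higher and 1 lower, against 7.37% and 6.46% of all genes tested. Their median difference was 0.36. The roles hold few genes, and whether their shares differ was not tested. Pdlim1, a PDZ and LIM protein that binds alpha-actinin (chromosome 19, 40222239 to 40271616, minus strand), rose from 9.55 to 10.88. The rise of 1.33 (95% interval 1.13 to 1.53), or 2.52-fold, was the largest of the 38, with a moderated limma adjusted p of 1.23e-05. The authors' deposited table lists its FDR as 0.0308. Pdlim7, also called enigma (chromosome 13, 55495795 to 55513446, minus strand), rose from 10.75 to 11.38, by 0.63 (0.32 to 0.95, moderated limma adjusted p = 0.0025). Pdlim4 (chromosome 11, 54054928 to 54069017, minus strand) fell from 11.29 to 10.75, by 0.54 on the log2 scale (-1.08 to -0.01, moderated limma adjusted p = 0.0263), to 68.7% of control. Members of the Pdlim family were thus called in opposite directions. Per kilobase, Pdlim1 went from 3.13% to 7.28% of the 6 Pdlim genes, Pdlim7 from 10.9% to 15.6% and Pdlim4 from 22.8% to 14.5%. Pdlim3, the alpha-actinin-associated LIM protein of muscle and the most abundant of the 6, held 56.8% and 55% and differed by 0.07 (-0.13 to 0.27). Pdlim2 and Pdlim5 were at 0.36 (-0.22 to 0.94) and 0.39 (-0.14 to 0.92), and Pdlim5 passed the threshold after removal of the length trend (0.51, adjusted p = 0.0371).

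Csrp1, a LIM protein of smooth muscle actin bundles (chromosome 1, 135729197 to 135752229, plus strand), rose by 0.33 (95% interval 0.21 to 0.45, moderated limma adjusted p = 0.0181) from 12.78 to 13.11. Fhl2, a four-and-a-half-LIM protein that binds SRF (chromosome 1, 43123071 to 43196761, minus strand), rose from 10.80 to 11.20. That rise of 0.41 was called at an adjusted p of 0.0405 by moderated limma, but the interval from the deposited p reached from -0.02 to 0.83, and the call was lost with the length trend removed (adjusted p = 0.0716). Its relative Fhl1 was at 0.10 (-0.01 to 0.21), not called.

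No transcription factor of the list was called (0 of 3 by the moderated limma test and by the authors' FDR, 1, Srf, at an unadjusted moderated p below 0.05). Srf (chromosome 17, 46546839 to 46556162, minus strand), which holds CArG boxes in its own promoter, stood at 10.08 and 10.32, a difference of -0.24 (95% interval -0.56 to 0.09). The smooth muscle cofactor Myocd stood at 8.38 and 8.02, or 0.36 (-0.23 to 0.95). Mkl1, the actin-sensing cofactor, was at 9.63 and 9.62, or 0.02 (-0.47 to 0.50). The intervals of Srf and Mkl1 end below 1.5-fold and that of Myocd does not. Over all 38 genes, 17 had such an interval, against 41.2% of all genes tested.

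Transcript length moved with the differences. Over 17775 genes with a known length the rank correlation of difference and length was -0.21, and the median difference fell from 0.18 in the shortest of 20 equal bins to -0.17 in the longest. Among the 38 genes the rank correlation was -0.19, over transcripts of 665 to 8345 bases. Removing the trend raised the median of the 38 from 0.21 to 0.27, and 10 were then called higher and 3 lower, of which 9 were among the 11 called before. Against it stand 8.44% of all genes with a length called higher and 4.48% called lower. The cause of the trend was not tested.

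**Figure D4:**
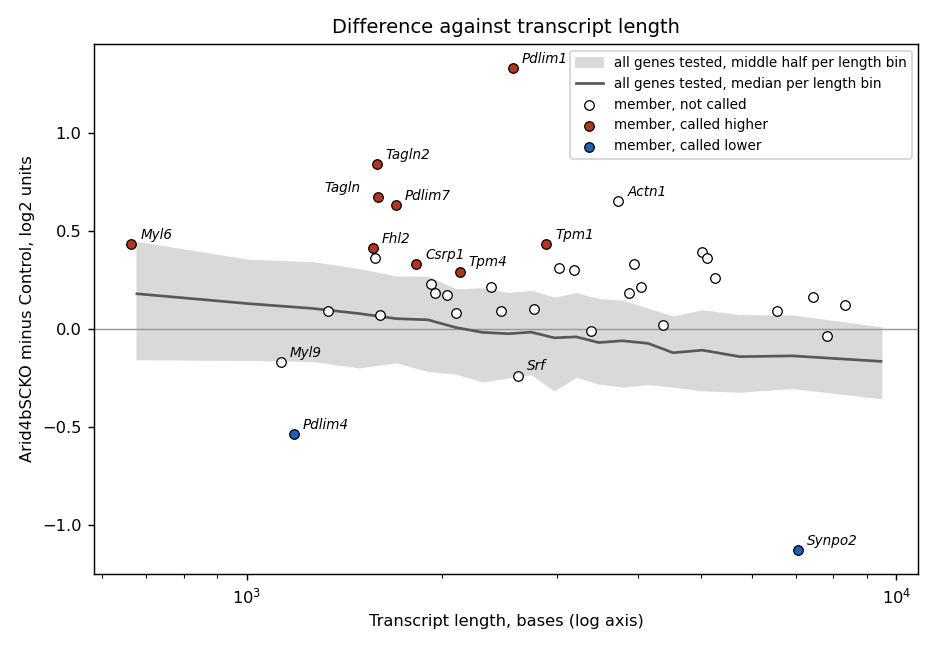
Difference between the groups (log2 units) against transcript length (log axis) for the 38 genes, with the median and interquartile band of all genes tested in 20 length bins. Long genes such as Flna and Myh9 lie above the median of their length, while Myl6 lies close to the upper quartile of the short ones.

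The pathway lists that follow were chosen with earlier results of these data known. Their counts stand against 7.37% of all genes tested called higher and 6.46% called lower. Of 31 further actin targets of SRF and its MKL cofactors, 10 were called higher and 0 lower, 24 had a positive difference and the median was 0.20. Myl12a, a non-muscle regulatory light chain, was at 0.65 (95% interval 0.46 to 0.84), Filip1l at 0.85 (0.38 to 1.31), the adhesion molecule gene Mcam at 0.65 (0.30 to 0.99) and the LIM protein gene Csrp2 at 0.48 (0.23 to 0.72). Immediate-early targets that SRF drives with ternary complex factors had 4 of 12 called higher and 0 lower and a median of 0.41. They were Junb (2.46, 1.41 to 3.50), Ier2 (0.51, 0.34 to 0.67), Cyr61 (2.51, 1.21 to 3.82), which is in both lists, and Fosb (2.07, with an interval that reached from 0 to 4.14). A list of other factors that work with SRF, with its MKL cofactors or on shared targets was mixed in role. It held Scai, a repressor of MKL1, and Yap1 and Wwtr1, which act with TEAD factors. Of 10 tested, 4 were called lower and 1 higher, and the median was -0.27, or -0.15 with the length trend removed. Gata6, Yap1, Gata4 and Scai were at -0.61, -0.40, -0.39 and -0.38, and Wwtr1, which encodes TAZ, rose by 0.41 (0.16 to 0.67). With the length trend removed Scai and Gata4 were not called (adjusted p = 0.244 and 0.0822). Gata4 and Gata6 are also made by Sertoli cells.

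Markers of other cell types that could carry these transcripts were read beside them. For their counts too, 7.37% of all genes tested were called higher and 6.46% lower. Of the macrophage markers 11 of 11 were called higher, with a median of 0.95 and a summed level of 7016 normalized counts in Arid4bSCKO and 3150 in control. Lyz2 weighs most in both sums, with log2 levels of 11.49 and 9.81. Its difference was 1.68 (95% interval 0.47 to 2.89, moderated limma adjusted p = 0.0481). The complement genes C1qa (1.20, 95% interval 0.78 to 1.61), C1qb (1.12, 0.63 to 1.60) and C1qc (1.20, 0.64 to 1.75) and the mannose receptor gene Mrc1 (0.52, 0.32 to 0.72) had the smallest p. With the length trend removed 9 of the 11 were called, without Lyz2 and Aif1 (adjusted p = 0.0501 and 0.0657), which were named after their values were seen. Macrophages also express Tagln2, Myl6 and the cytoplasmic actins, and the part of macrophage RNA in their differences was not tested. Sertoli cell markers had 6 of 12 called lower and 1 higher, summing to 39466 in Arid4bSCKO and 69187 in control. Among them Nr5a1 (-0.53, -0.78 to -0.29), Dmrt1 (-0.72, -1.30 to -0.13), Dhh (-0.86, -1.60 to -0.13) and Ptgds (-0.86, -1.61 to -0.11) were lower, and Cldn11 (0.95, 0.32 to 1.58) higher. Amh weighs most in the control sum of these Sertoli cell markers. It went from a log2 level of 14.25 to 12.63 and was not called (moderated limma adjusted p = 0.111). With neither a trend on level nor robust fitting, 1 gene was called over all 12 marker lists and 2 genes over the 3 pathway lists, all of them higher.

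Vascular smooth muscle and pericyte markers, of cells that also make Acta2, Tagln and Myh11, had 1 of 12 called (Mcam, higher), a median of 0.00 and sums of 13691 in Arid4bSCKO and 11538 in control. Without Mcam, which is also counted among the further SRF targets, the sums were 7655 and 7683. Markers of myoid cells and their interstitial progenitors had 2 of 11 called lower and 0 higher, with sums of 54700 and 58990. The lower genes were Ptch1, the receptor of desert hedgehog (-0.89, 95% interval -1.49 to -0.28), and Nr2f2 (-0.38, -0.72 to -0.03). With the length trend removed Nr2f2 was not called (adjusted p = 0.0985). Skeletal muscle, which surrounds the testis as the cremaster, was represented by 14 markers that summed to 995 normalized counts in Arid4bSCKO and 842 in control. The moderated limma test called 0 of them, with 2 at an unadjusted p below 0.05, Actn2 (0.80, -0.11 to 1.72) and Actn3 (-0.62, -1.44 to 0.21). Cardiac muscle markers, with 0 of 6 tested called and 1 at an unadjusted p below 0.05, summed to 2210 and 2056, and Actc1 (1.07, -0.45 to 2.58) and Myh6 (-0.38, -0.93 to 0.18) had the smallest p. Tnni3, at log2 levels of 10.74 in Arid4bSCKO and 10.60 in control, makes up most of both cardiac sums. Mesothelial markers, of the testis surface, had 7 of 7 positive differences, a median of 0.41, sums of 3324 and 2568 and 0 called, with 1 at an unadjusted p below 0.05. Those with the smallest p were Upk3b (0.44, -0.28 to 1.16) and Krt19 (0.41, -0.33 to 1.15), and the part of these cells in the rises was not tested.

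Platelet markers, of cells that also hold Tagln2, Myl9 and Myl6, summed to 335 normalized counts in Arid4bSCKO and 197 in control, and to 83.3 and 95.8 without Pf4. Of 8 tested, 6 had a negative difference, the median was -0.24 and Pf4 alone was called (1.31, 95% interval 0.51 to 2.10), a gene that macrophages make too. Endothelial markers summed to 9687 and 10999, with 0 of 10 called and 2 at an unadjusted moderated p below 0.05, Cdh5 (-0.33, -0.73 to 0.07) and Flt1 (-0.36, -0.76 to 0.04). Duct markers summed to 1376 and 1675, with 0 of 8 called and Esrp1 (-0.72, -1.53 to 0.09) and Epcam (0.35, 0.08 to 0.62) at an unadjusted moderated p below 0.05. Esrp1 and Epcam also weigh most in both duct sums, with control log2 levels of 9.49 and 8.42. Fetal Leydig cell markers summed to 42739 and 43846, with 0 of 6 called and 0 at an unadjusted moderated p below 0.05, and Star (0.40, -0.51 to 1.32) and Lhcgr (-0.21, -0.66 to 0.24) had the smallest p. Germ cell markers summed to 7916 and 10682, and 1 of 10, Dppa4, was called (-0.86, -1.66 to -0.05). Of these 10 germ cell markers 8 had a negative difference, and the median was -0.42. At an unadjusted moderated p below 0.05 stood 5 of them, and 5547 of all 19095 genes tested. No marker of these lists was at 0 in both groups.

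**Figure D5:**
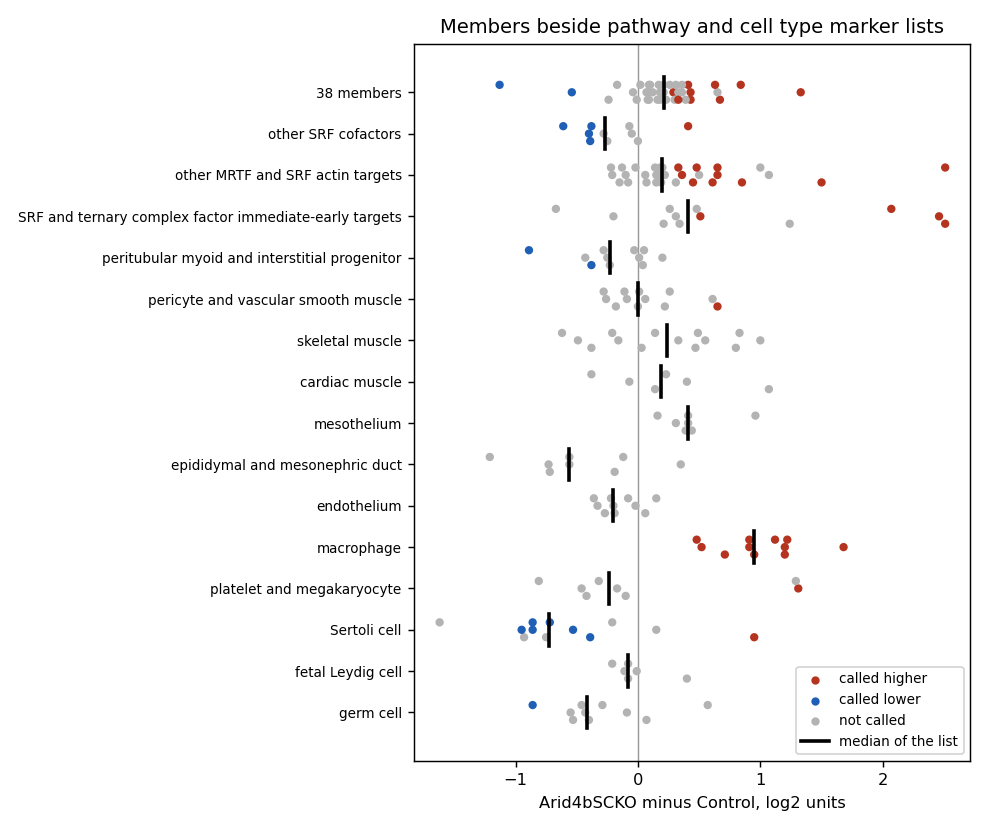
Difference between the groups (log2 units) of each gene in the 38-gene list, in 3 lists of SRF pathway genes and in 12 lists of cell type markers, with called genes in colour and the list median as a bar. The macrophage list lies to the right of 0 throughout, the Sertoli cell list mostly to its left, and the pericyte list around 0.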

How the data were processed

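Total RNA of 3 pools per group was made into strand-preserving poly(A) libraries and read from both ends for 50 bases, per the labels' protocols. The submitters' processing notes list STAR 2.4 and mm10. How reads were counted, whether by strand, on which annotation and with which normalization was not given in the sources used here. Per the file headers and column descriptions, the deposited table holds group means of log2 normalized counts, an equal-variance p-value, its FDR and a log2 ratio of group medians. From the values, an offset of 1 was added before the log. The list members and gene lists were chosen with earlier results of these data known.

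Control means were subtracted from Arid4bSCKO means. The variance of this difference was recovered from the deposited p-value at 4 residual degrees of freedom, which also gives the 95% intervals. Variances of the 19095 genes at a mean log2 level of 1 or more were moderated with limma 3.58.1 (squeezeVar, trend on level, robust fitting) in R 4.3.3, and p-values adjusted by the Benjamini-Hochberg method. In 529 rows a filled-in value stood for 1 library, and these were left out. Lengths are GENCODE M21 transcripts matched to the RefSeq accessions of a row, else by gene. Starts in the table count from 0 and were raised by 1. Fold changes come from log2(normalized count + 1) and understate those of low genes. A list of pathway genes considered at the outset is not reported here, for reasons unrelated to its values. All 38 genes are named. Of each other list, up to 4 called genes per direction with the smallest p were named, or the 2 with the smallest p where none was called. Amh, Tnni3, Lyz2 and Aif1 were named besides, after their values were seen.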

Additional observations from a re-analysis of the deposited data

How the results depend on the processing

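The table holds group means, so leaving out a pool and changing the offset of the log were not run. No paired analysis was possible because the table holds no values of single pools. Of the 38 genes 9 were called higher and 2 lower. The authors' deposited FDR gave 1 and 0, and the moderated test without the trend on level and robust fitting gave 2 and 1. Over the 3 SRF pathway lists together, 14 genes were called higher and 4 lower. These settings gave 0 and 0, and 2 and 0, and removing the length trend left 2 lower. Over the 12 marker lists, with 14 called higher and 9 lower, the deposited FDR gave 0 and 0, and the fit without trend and robust fitting 1 and 0. Allowing 1 mismatch moved the genes with a CArG box from 8 to 16. Among single genes, those that turned sign were uncalled in either setting: by the ratio of medians Actg2 (-0.10), Myh11 (-0.10) and Mkl1 (-0.08), with the length trend removed Mylk (0.11) and Smtn (0.05), and centred on the median gene Smtn (0.00). The median of the 38 stayed between 0.16 and 0.27 in the settings tried. Genes with few reads carry counting noise, which bears most on Synpo2.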
